A study of Homo sapiens with 6 samples.

Results

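The 40 genes described here act in the mitotic cell cycle, from cyclins and mitotic kinases to kinetochore, spindle and cytokinesis proteins. They were chosen by name and found in the deposited count table through the gene symbols of the GENCODE annotation, and all 40 were present among its 58884 genes. RNA-seq compared 3 libraries of DLD1 parental cells with 3 libraries of DLD1 p85β KR-AA cells. DLD1 is a human colorectal cancer line that carries a *PIK3CA* E545K helical domain mutation, which both groups share. In p85β KR-AA cells, a lysine and the arginine next to it in p85β, a regulatory subunit of PI3K encoded by *PIK3R2*, were changed to alanine at the endogenous locus (K477A and R478A). Both lie in a predicted nuclear localization signal. The study derived knock-in clones of this genotype, and the labels do not say which clone gave which library or whether the libraries came from separate cultures. If they did not, p-values measure technical spread. The source names of p85β KR-AA replicates 2 and 3 give another position for the second change than their titles and genotype do. The comparison asks which transcripts differ when p85β is kept from the nucleus.

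Mitosis is driven by cyclin-dependent kinase 1 bound to A- and B-type cyclins. Polo-like and Aurora kinases then build the spindle and correct its attachments to kinetochores, the protein assemblies on centromeres. A checkpoint holds back the anaphase-promoting complex (APC/C) until every chromosome is attached, and kinesins, centralspindlin and anillin divide the cell afterwards. Most of these genes are transcribed together late in the cycle, through the factors FOXM1 and B-MYB and through a pair of promoter elements, the CHR (TTTGAA or TTCGAA) and the CCAAT box, so that their RNAs serve as signs of proliferation in colorectal cancer and other tumours.

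Promoters of genes that moved in opposite directions are shown first, chosen to hold one of these shared elements. The windows are those of RefSeq on GRCh38.p14, from 250 bases before to 50 bases after the start of a gene, and 33 of the 40 genes matched an entry. The first listed window of each gene was used, and 6 of the 33 have more than that, up to 4. *AURKA*, *BIRC5*, *BUB3*, *FOXM1*, *TPX2*, *TTK* and *UBE2C* are named only. The last 100 bases before the start are printed for 4 genes that rose in p85β KR-AA cells and 3 that fell (at least 3-fold at an adjusted p under 0.01, edgeR), with TTTGAA and CCAAT in capitals on either strand (TTCAAA and ATTGG on the opposite one). Only genes with TTTGAA within these 100 bases were printed, so its presence in each sequence was fixed by that choice. *CENPE*, which rose, and *AURKB*, *KIF2C* and *SPC24*, which fell, held neither TTTGAA nor TTCGAA in their first listed window. Genes that rose were *ANLN* at chr7:36389762-36389861 (plus strand), *KIF11* at chr10:92593030-92593129 (plus strand), *KIF23* at chr15:69414249-69414348 (plus strand) and *MKI67* at chr10:128126424-128126523 (minus strand). Genes that fell were *CDC20* at chr1:43358881-43358980 (plus strand), *CENPA* at chr2:26785956-26786055 (plus strand) and *PLK1* at chr16:23678789-23678888 (plus strand).
ANLN: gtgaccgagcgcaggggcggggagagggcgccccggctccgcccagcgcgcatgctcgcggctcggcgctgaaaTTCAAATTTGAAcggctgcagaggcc
KIF11: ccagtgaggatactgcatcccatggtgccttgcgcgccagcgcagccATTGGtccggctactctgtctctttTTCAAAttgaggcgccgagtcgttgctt
KIF23: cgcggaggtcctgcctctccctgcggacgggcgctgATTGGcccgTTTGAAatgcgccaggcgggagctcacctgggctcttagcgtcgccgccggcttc
MKI67: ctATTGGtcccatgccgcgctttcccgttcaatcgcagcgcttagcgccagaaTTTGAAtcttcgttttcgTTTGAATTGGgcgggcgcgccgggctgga
CDC20: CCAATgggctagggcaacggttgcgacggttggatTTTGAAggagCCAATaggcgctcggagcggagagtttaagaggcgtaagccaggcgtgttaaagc
CENPA: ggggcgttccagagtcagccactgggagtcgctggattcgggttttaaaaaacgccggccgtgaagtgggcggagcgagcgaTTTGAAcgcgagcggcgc
PLK1: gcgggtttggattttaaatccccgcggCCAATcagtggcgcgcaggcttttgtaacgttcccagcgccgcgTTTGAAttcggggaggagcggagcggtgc
In *ANLN* a TTTGAA lies on each strand next to the other, and in *MKI67* the second TTTGAA overlaps a CCAAT of the opposite strand. Over the whole 300-base windows, TTTGAA stood in 22 of 33 mitotic promoters (66.7%) against 15.4% of 27305 promoters of all genes. CCAAT stood in 25 of 33 (75.8%) against 35.7%, and 15 of 33 (45.5%) held it at least 2 times, against 11.3%. TTCGAA was in 2 of 33 (6.06%) against 1.45%. When any listed window of a gene counted, a choice added after seeing the data, TTTGAA stood in 23 of 33 (69.7%) against 18.2% of all genes and TTCGAA in 3 (9.09%) against 1.82%. Such a match is a run of letters and not a measured binding site.

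Depth was similar across the libraries, with totals of 20301932 to 20873475 estimated counts in parental libraries and of 20301396 to 26712816 in those of p85β KR-AA cells. Genes with a count numbered 18989 to 19707 in parental and 23231 to 24399 in p85β KR-AA libraries, so more genes were detected in the latter. Counts do not show the altered codons, and *PIK3R2* differed by a log2 fold change of -0.93 (SE 0.42, adjusted p = 0.0558, edgeR quasi-likelihood test), with overlapping libraries. With library totals it was at -0.004 (adjusted p = 0.994) and with length and GC offsets at -0.02 (adjusted p = 0.973). Its counts are uncertain, because an annotated readthrough gene covers it. The cell type was checked with marker lists. Of 15 colon epithelial markers 14 were tested, of which 2 rose and 8 fell, and their summed level was 58480 to 80610 CPM (counts scaled to a common library size with TMM normalization, as in all levels given here) in parental and 9334 to 10910 CPM in p85β KR-AA libraries. Most of this sum was *KRT8*, *KRT18* and *KRT19*. The genes that rose were *CDH1*, with 60.1 to 126 CPM and then 331 to 367 CPM, and *CDH17*, with 5.17 to 8.64 CPM and then 26.4 to 30.3 CPM. *CDX1* was at or near 0 in every library, while *CDX2* was at 322 to 365 CPM and then 84.5 to 93.9 CPM. Of 14 mesenchymal markers 9 were tested, of which 7 rose and 0 fell, and their sum went from 7.65 to 10.6 CPM to 6321 to 7234 CPM, nearly all of it *VIM* and *FN1*. *COL1A2*, *PDGFRA* and *TWIST1* were at 0 in every p85β KR-AA library. Of 8 blood markers 2 were tested and 0 were called, with sums of 5.18 to 12.7 CPM and 6.02 to 7.07 CPM. The p85β KR-AA libraries thus stood apart from the parental ones in epithelial and mesenchymal genes, and the part of this difference in the mitotic values was not tested. Counts per gene do not settle whether both groups are the same cell line but for the knock-in, so each fold change here compares the libraries as labelled. In bulk RNA, fewer cycling cells and less RNA per cell cannot be told apart.

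Mitotic genes moved in both directions. A gene is said to have risen or fallen if it changed at least 3-fold, which is 1.585 on the log2 scale, at an adjusted p under 0.01 in edgeR's quasi-likelihood test. All 40 genes passed the filter on low counts, 9 rose and 8 fell, and 23 did neither. Among all 16059 genes tested, 28.6% rose and 17.6% fell. With the p-value alone, 20 mitotic genes were higher and 15 lower, where 41.6% and 32.7% of all genes were. The 3 p85β KR-AA libraries lay all above the parental ones in 18 genes and all below in 16, together 34 of 40, where 83.5% of all genes tested had groups that did not overlap. The shares of mitotic genes were thus near those of all genes, and the median log2 fold change was 0.47 beside 0.32 for all genes. For the 23 genes with TTTGAA or TTCGAA in the first listed promoter window the log2 fold changes centred on a median of 1.46, with 8 that rose and 4 that fell. The 10 genes without one there had a median of -0.84, with 1 that rose and 3 that fell. *CDC25B* and *CDC25C* are among these 10 and hold the element in another listed window, and with any window counted the medians were 1.03 for 25 genes and -0.84 for 8. Genes with the element were found on both sides either way. The groups were not matched for length or GC content, with which the change goes along as described further on. All genes were not split in this way, and the part of the element in these medians was not tested. Fold changes in this text rest on TMM normalization, which centres them on the bulk of the genes. Its factors were 0.677 to 0.777 in parental and 1.35 to 1.41 in p85β KR-AA libraries, so they differed between the groups. Scaling by library totals instead moved the median of all genes to 1.24 and that of the mitotic genes to 1.39, and 20 mitotic genes then rose and 1, *SPC24*, fell. Among all 16059 genes, 7052 then rose and 973 fell. The summed level of the 40 genes likewise went from 3371 to 3441 CPM to 2213 to 2408 CPM with TMM, but from 0.228 to 0.267% to 0.299 to 0.338% of all counts, so its direction turned with the scaling. With library totals 6 genes went from a negative to a positive log2 fold change, *CCNB1*, *CDC25B*, *CDC25C*, *ESPL1*, *INCENP* and *PTTG1*, of which 0 were among those that fell.

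**Figure D1:**
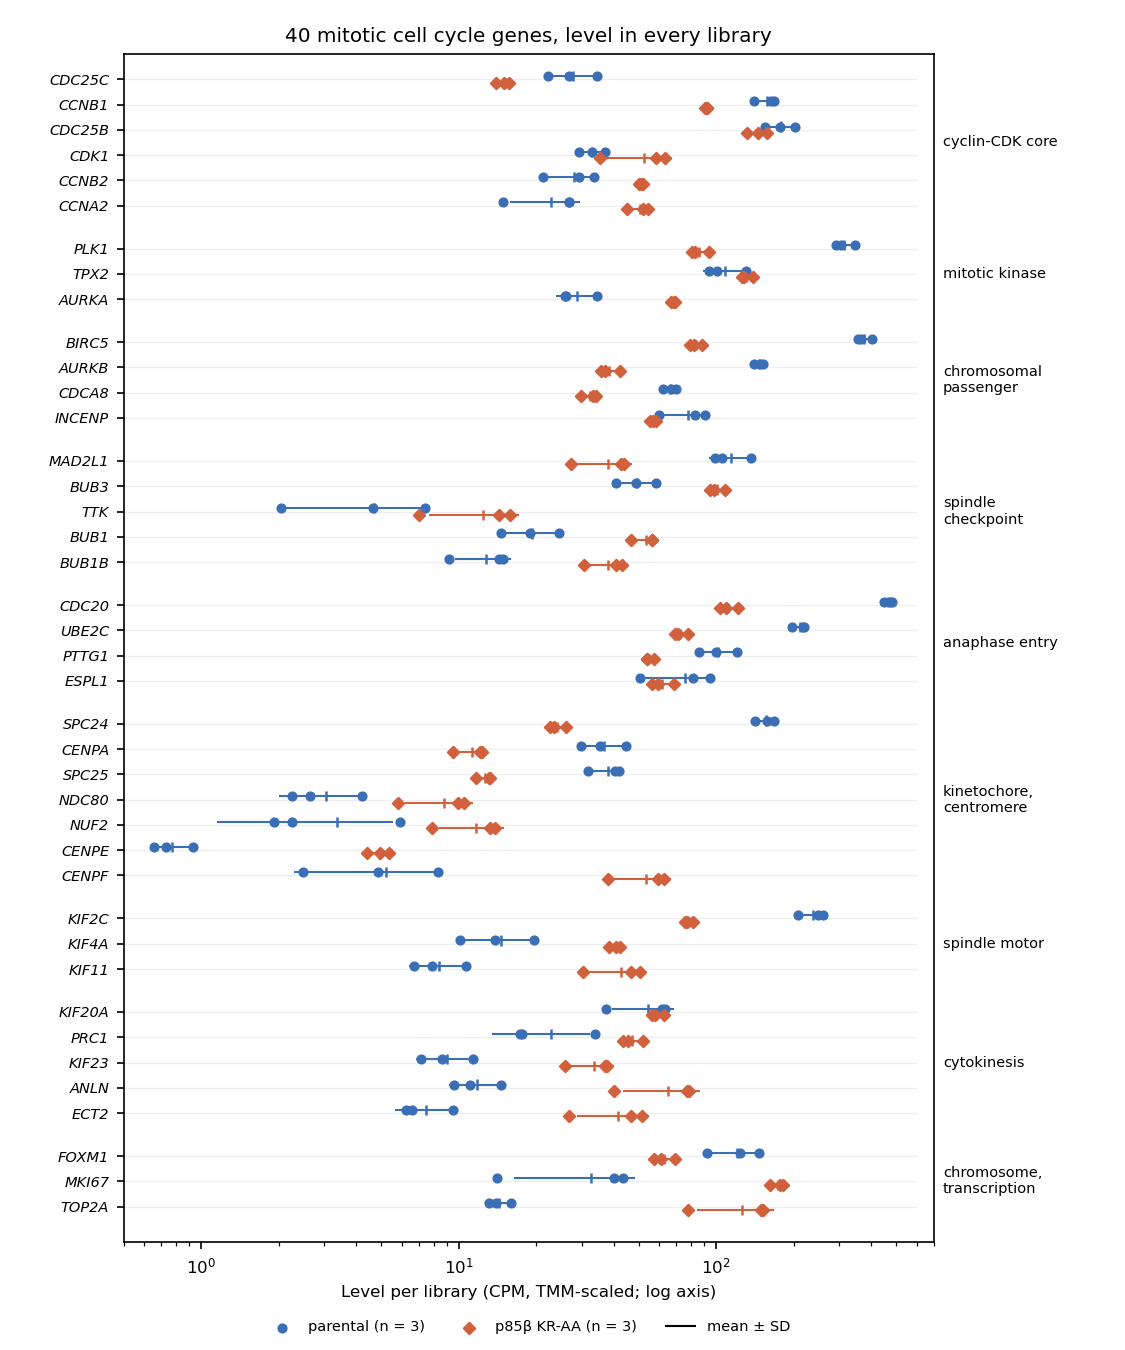
Level of each of the 40 mitotic genes in every library, in CPM scaled by TMM on a log axis, ordered by role and fold change. Blue circles are the 3 parental and red diamonds the 3 p85β KR-AA libraries, with ticks and lines for mean ± SD. *SPC24* and *BIRC5* lie far to the left in p85β KR-AA cells, *CENPF* and *TOP2A* far to the right, and 34 of 40 genes have groups that do not overlap.

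The cyclin-CDK core had no member past both thresholds. *CDK1*, the catalytic kinase of mitosis, stood at 29.3, 37.1 and 32.8 CPM in parental and 58.6, 63.1 and 35.3 CPM in p85β KR-AA libraries, and p85β KR-AA replicate 3 lay within the parental range. *CCNB1*, the cyclin B1 that activates it, stood at 140.2, 168 and 164 CPM and then at 90.4, 91.8 and 92.1 CPM, below every parental library, but its log2 fold change turned from -0.78 with TMM to 0.14 (adjusted p = 0.291, edgeR) with library totals. Cyclins A2 and B2 went the other way in level. *CCNA2* had 14.8, 26.8 and 26.8 CPM in parental and 52.1, 54.3 and 44.9 CPM in p85β KR-AA libraries (log2 fold change 1.15, SE 0.21, adjusted p = 2.33e-04, edgeR). *CCNB2* had 21.2 to 33.6 CPM and 50 to 51.8 CPM. Part of the *CCNA2* reads may belong to *EXOSC9*, which shares 254 exon bases with it on the opposite strand. Within a library and per kilobase of gene length, *CCNB1* exceeded *CDK1* 4.51, 4.27 and 4.71 times in parental cells and 1.46, 1.37 and 2.46 times in p85β KR-AA cells. Such a ratio does not depend on the scaling of the library, although it keeps any difference in length and base composition between its genes. The phosphatase genes *CDC25B* and *CDC25C*, which remove the inhibitory phosphates from CDK1, had log2 fold changes of -0.30 (adjusted p = 0.0618) and -0.90 (adjusted p = 4.97e-04) by edgeR. *CDC25C* shares 293 exon bases with *FAM53C* on the opposite strand, and part of its reads may belong to that gene. The median of the 6 genes was 0.18, and it was -0.25 with the length and GC offsets described further on.

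Among the mitotic kinases, *PLK1* fell. Polo-like kinase 1, which acts in spindle assembly and mitotic entry, had 347, 304 and 291 CPM in parental and 82.8, 80.7 and 93.7 CPM in p85β KR-AA libraries, a 3.66-fold lower level (log2 fold change -1.87, SE 0.13, adjusted p = 4.41e-08, edgeR). The groups were far apart compared with their spread. *AURKA*, the centrosomal Aurora kinase, had 25.9, 26.0 and 34.5 CPM and then 66.9, 69.0 and 68.8 CPM, 2.37-fold higher and short of the 3-fold threshold. *TPX2*, its activator on the spindle, had 94.0 to 131 CPM and 126 to 139 CPM, with overlapping groups. The ratio of *AURKA* to *TPX2* per kilobase was 0.418, 0.448 and 0.427 in parental and 0.861, 0.876 and 0.801 in p85β KR-AA libraries. The kinase and its activator were thus nearer in level in the mutant cells.

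The chromosomal passenger complex corrects faulty attachments and directs cytokinesis, and all 4 of its genes were below the parental range with TMM scaling, although with library totals *INCENP* turned to a log2 fold change of 0.46 (adjusted p = 0.034, edgeR) and *CDCA8* was at -0.11 (adjusted p = 0.485). *AURKB*, its kinase, had 152, 147 and 141 CPM in parental and 35.8, 36.9 and 42.3 CPM in p85β KR-AA libraries (log2 fold change -1.94, SE 0.13, adjusted p = 2.98e-08, edgeR). *BIRC5*, which encodes survivin, had 355, 403 and 365 CPM and then 82.0, 79.3 and 88.2 CPM (log2 fold change -2.17, SE 0.13, adjusted p = 1.11e-08, edgeR). Both genes fell, by 3.82-fold and 4.50-fold. *CDCA8*, the borealin gene, was 2.04-fold lower with 62.1 to 69.8 CPM and then 29.9 to 34.3 CPM, and *INCENP*, the scaffold, had a log2 fold change of -0.45 (adjusted p = 0.0171, edgeR). *INCENP* is the longest of the 4 genes at 4114 bases and *AURKB* the shortest at 1254 bases. Per kilobase, *AURKB* exceeded *INCENP* 5.52, 8.07 and 5.57 times in parental and 2.07, 2.19 and 2.38 times in p85β KR-AA libraries. The median over the complex was -1.48, and it stayed negative with library totals (-0.56) and with length and GC offsets (-0.74).

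The spindle checkpoint genes had no member past both thresholds, although 4 of 5 were higher and 1 lower by the p-value alone. *BUB1B*, the gene for BubR1, had 9.17, 14.3 and 14.9 CPM in parental and 43.0, 40.8 and 30.6 CPM in p85β KR-AA libraries, 2.98-fold higher and just outside the threshold. It shares 240 exon bases with *PAK6*. *BUB1*, a checkpoint kinase, was 2.75-fold higher at 14.6 to 24.5 CPM and then 46.8 to 56.5 CPM. *BUB3*, the partner of both, was 2.04-fold higher. *TTK*, the Mps1 kinase, had 4.65, 7.43 and 2.04 CPM and then 14.3, 15.8 and 7.0 CPM, so that the groups overlapped. *MAD2L1*, the gene for the checkpoint effector Mad2, differed from the other four. It had 99.3, 136 and 105 CPM in parental and 42.8, 43.8 and 27.2 CPM in p85β KR-AA libraries, a 2.99-fold lower level (log2 fold change -1.58, SE 0.19, adjusted p = 6.74e-06, edgeR), also just outside the threshold. At 5227 bases and 38.4% GC, *MAD2L1* is long and GC-poor, and the other long and GC-poor mitotic genes were higher. The median of the 5 genes was 1.41, and with length and GC offsets it turned to -0.03.

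The genes of anaphase entry were lower or did not pass the test. *CDC20*, the APC/C activator that the checkpoint holds back, had 480.0, 449 and 472 CPM in parental and 109, 104 and 121 CPM in p85β KR-AA libraries. It fell 4.20-fold (log2 fold change -2.07, SE 0.12, adjusted p = 1.47e-08, edgeR), from the highest CPM of the 40 genes. *UBE2C*, the ubiquitin-conjugating enzyme of the APC/C, had 218, 219 and 197 CPM and then 71.2, 69.2 and 77.6 CPM, which at 2.91-fold was short of the threshold. *PTTG1*, which encodes securin, was 1.85-fold lower. Its copies *PTTG2* and *PTTG3P* were listed at 0 in every library. *ESPL1*, the gene of separase that securin inhibits, had 94.7, 50.7 and 81.1 CPM and then 59.6, 56.5 and 68.6 CPM, with overlapping groups. At 6447 bases *ESPL1* is long, but its GC content of 57.0% is high. The median of the 4 genes was -1.22, and it was -0.29 with library totals and -0.68 with length and GC offsets.

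Of 7 kinetochore and centromere genes 3 rose and 3 fell. *CENPF*, a large kinetochore and nuclear matrix protein gene at chr1:214776528-214837917 (GRCh37), had 8.30, 2.48 and 4.87 CPM in parental and 59.2, 62.8 and 37.9 CPM in p85β KR-AA libraries. It rose 10.2-fold, the largest rise of the 40 genes (log2 fold change 3.35, SE 0.34, adjusted p = 1.10e-06, edgeR). *CENPE*, the kinetochore kinesin, had 0.731, 0.655 and 0.925 CPM and then 4.96, 5.36 and 4.41 CPM (log2 fold change 2.66, SE 0.27, adjusted p = 1.39e-06, edgeR). Parental values of *CENPE* were low, since 1 count was worth 0.0617 to 0.0728 CPM in these libraries. *CENPA*, the centromeric histone H3 variant, fell from 29.8, 44.5 and 35.4 CPM to 12.3, 12.1 and 9.51 CPM (log2 fold change -1.69, SE 0.19, adjusted p = 2.95e-06, edgeR). It shares 138 exon bases with *SLC35F6*.

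The other 4 of these genes encode the Ndc80 complex, which binds microtubules as a tetramer of NDC80, NUF2, SPC24 and SPC25. *SPC24*, at chr19:11242196-11266483 (GRCh37), had 158, 168 and 141 CPM in parental and 22.6, 23.4 and 26.2 CPM in p85β KR-AA libraries. It fell 6.47-fold, the largest fall of the 40 genes (log2 fold change -2.69, SE 0.14, adjusted p = 5.96e-09, edgeR). *SPC25* had 31.7, 42.0 and 40.3 CPM and then 13.2, 13.1 and 11.6 CPM, and at 3.01-fold lower lay just inside the threshold. *NUF2* rose from 2.26, 5.90 and 1.91 CPM to 13.3, 13.9 and 7.91 CPM (log2 fold change 1.82, SE 0.37, adjusted p = 5.61e-04, edgeR). Without parental replicate 3 *NUF2* was at 1.49 and short of the threshold, and without parental replicate 2 at 2.46. *NDC80* had 2.26, 4.22 and 2.65 CPM and then 10.5, 9.96 and 5.83 CPM, 2.90-fold higher. The 2 genes that were scarce in parental cells were thus higher and the 2 abundant ones lower. Per kilobase, the highest of the 4 exceeded the lowest 235, 134 and 229 times in parental libraries and 7.22, 7.89 and 15.1 times in p85β KR-AA libraries. In parental replicate 1 the levels were 1.06 CPM per kilobase for *NDC80*, 1.15 for *NUF2*, 249 for *SPC24* and 23.6 for *SPC25*. In p85β KR-AA replicate 1 they were 4.94, 6.75, 35.6 and 9.81 CPM per kilobase. The deposited length of *SPC24*, 633 bases, is shorter than its canonical transcript of 2290 bases, so its level per kilobase depends on that choice. The median of the 7 kinetochore and centromere genes was 1.53, and it was -0.12 with length and GC offsets.

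**Figure D2:**
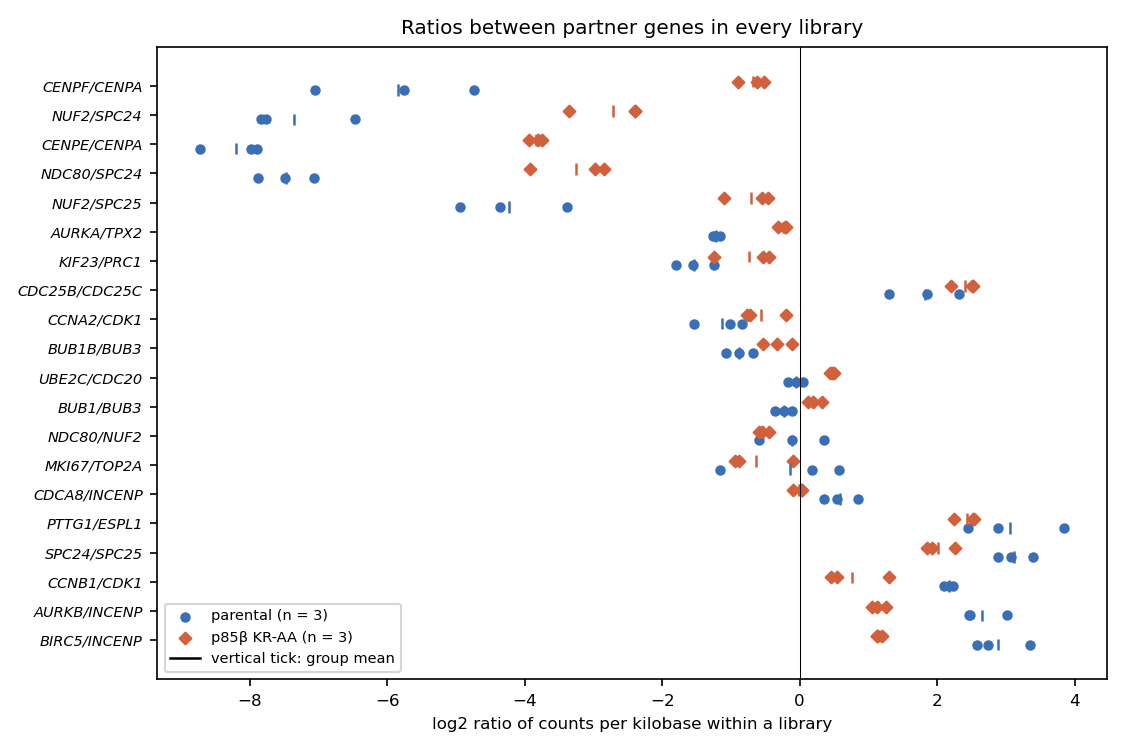
Ratio of counts per kilobase between partner genes within each library, on a log2 scale, with blue circles for the 3 parental and red diamonds for the 3 p85β KR-AA libraries and ticks for group means. The ratio of *NDC80* to *SPC24* runs from -7.87 to -7.06 in parental cells and from -3.92 to -2.85 in p85β KR-AA cells, and most other ratios lie nearer to 0 in the mutant cells.

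Of the spindle motors, *KIF11* rose, *KIF2C* fell and *KIF4A* was short of the threshold. *KIF11*, the kinesin Eg5 that pushes the spindle poles apart, had 6.71, 10.6 and 7.90 CPM in parental and 46.8, 50.6 and 30.3 CPM in p85β KR-AA libraries (log2 fold change 2.34, SE 0.23, adjusted p = 9.87e-07, edgeR). *KIF2C*, the microtubule-depolymerizing kinesin MCAK, had 207, 259.5 and 249 CPM and then 77.3, 75.9 and 81.6 CPM (log2 fold change -1.61, SE 0.13, adjusted p = 1.62e-07, edgeR). *KIF4A*, the chromokinesin, had 10.2 to 19.7 CPM and 38.5 to 42.2 CPM, 2.78-fold higher. *KIF11* was the longest of the 3 genes and *KIF2C* the shortest.

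Of 5 cytokinesis genes 3 rose and 0 fell. *ANLN*, the anillin of the contractile ring, had 9.56, 14.6 and 11.1 CPM in parental and 77.0, 78.2 and 40.1 CPM in p85β KR-AA libraries (log2 fold change 2.47, SE 0.26, adjusted p = 1.51e-06, edgeR). *ECT2*, the exchange factor that activates RhoA at the cleavage plane, had 6.24, 9.54 and 6.60 CPM and then 46.8, 51.5 and 26.9 CPM (log2 fold change 2.49, SE 0.26, adjusted p = 1.47e-06, edgeR). *KIF23*, the centralspindlin kinesin that recruits it, had 7.11, 8.59 and 11.4 CPM and then 37.1, 37.5 and 25.9 CPM (log2 fold change 1.89, SE 0.22, adjusted p = 3.74e-06, edgeR). In each of these 3 genes p85β KR-AA replicate 3 was the lowest of its group and still above every parental library. *KIF20A*, the kinesin Mklp2, had 37.3 to 63.5 CPM and 56.3 to 62.5 CPM, with overlapping groups. It shares 132 exon bases with *BRD8* and 74 with *CDC23*, both on the opposite strand. *PRC1*, which bundles the midzone, was 2.05-fold higher, but it shares 3181 exon bases with ENSG00000284946 on the same strand and is uncertain. The median of the 5 genes was 1.89, and it was 0.37 with length and GC offsets.

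Of 3 genes of mitotic chromosomes and transcription, *MKI67* and *TOP2A* rose, and *FOXM1*, the transcription factor of many mitotic genes, was lower without passing the fold threshold. *MKI67*, the Ki-67 coat of mitotic chromosomes at chr10:129894923-129924687 (GRCh37), had 43.3, 14.1 and 40.2 CPM in parental and 176, 182 and 162 CPM in p85β KR-AA libraries (log2 fold change 2.42, SE 0.30, adjusted p = 9.18e-06, edgeR). *TOP2A*, the topoisomerase that untangles sister chromatids, had 13.1, 14 and 15.9 CPM and then 151, 149.9 and 78.0 CPM (log2 fold change 3.14, SE 0.24, adjusted p = 8.78e-08, edgeR). *FOXM1* had 147, 91.8 and 124 CPM and then 61.0, 57.5 and 69.1 CPM, 1.94-fold lower, and shares 782 exon bases with *ITFG2* on the opposite strand. With TMM scaling, routine markers of proliferation therefore pointed in opposite directions in the same libraries. *MKI67* and *TOP2A* were higher and *BIRC5*, *PLK1* and *AURKB* lower. With the length offset described further on, *MKI67* was at 0.005 (adjusted p = 0.984, edgeR). With length and GC offsets it was at 0.31 (adjusted p = 0.18, edgeR) and *TOP2A* at 0.76, while *BIRC5*, *PLK1* and *AURKB* were at -2.05, -0.89 and -0.58.

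The change of a mitotic gene followed its length. Lengths in the deposited table ran from 633 bases for *SPC24* to 12716 bases for *MKI67*. Of the 20 genes of up to 2966 bases, 1 rose (*NUF2*) and 8 fell, with a median log2 fold change of -0.97. Of the 20 genes of 3072 bases or more, 8 rose and 0 fell, with a median of 1.47. Across the 40 genes Pearson's r between log2 length and log2 fold change was 0.65 and Spearman's rho 0.64, and over all 16059 genes tested they were 0.37 and 0.45. Genes share their libraries and are no replicates, so these are descriptions. The slope was 1.16 per doubling of length in mitotic genes and 0.86 in all genes.

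All genes tested moved with length in the same way. Their median log2 fold change was -1.12 up to 1000 bases, -0.70 up to 2000, -0.04 up to 3000, 0.64 up to 4000, 1.24 up to 6000 and 2.14 over 6000 bases, each range starting where the one before it ended. The mitotic genes in these ranges had medians of -2.12 (2 genes), -0.90 (9), -0.78 (9), 0.65 (8), 2.34 (7) and 2.42 (5). In the longest range *CENPF*, *CENPE* and *MKI67* rose, as 61.3% of all genes there did, while *BUB3* and *ESPL1* did not pass the threshold. In the range up to 1000 bases *SPC24* fell, as 39.4% of all genes there did, and *UBE2C* was just short of it. The length column matched the length of an annotated transcript of its gene for 33 of the 40 genes. For *SPC24* it is shorter than the canonical transcript of 2290 bases, which would fall in the range up to 3000 bases. Its place among the shortest genes thus depends on that choice, and its GC content is that of the longer transcript.

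GC content of the longest annotated transcript, from 35.4% for *CENPE* to 59.1% for *CDC25B*, went along with the change as well. Pearson's r between GC content and log2 fold change was -0.65 in the mitotic genes and -0.48 in all genes with a GC value. The genes were divided at their median length of 3019 bases and median GC content of 46.4%. The median log2 fold change of the 12 long and GC-poor genes was 2.11, and 7 rose and 0 fell, where all genes of that kind had a median of 2.09 and 63.4% rose. The 12 short and GC-rich genes had a median of -1.65, and 0 rose and 7 fell, where all genes of that kind had a median of -1.14 and 38.5% fell. The 8 long and GC-rich genes (median -0.09, 1 rose) and the 8 short and GC-poor genes (median 1.00, 1 rose and 1 fell) lay between. *MKI67* was the long and GC-rich gene that rose, and *NUF2* and *SPC25* were the short and GC-poor genes that changed.

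The fit was repeated with offsets that level the relation of counts to length and GC content over all genes in each library, whatever its source. With an offset for length alone, 3 mitotic genes rose (*NDC80*, *NUF2* and *TOP2A*) and 7 fell (*BIRC5*, *CDC20*, *ESPL1*, *KIF2C*, *MAD2L1*, *PLK1* and *SPC24*). Of all 16059 genes tested, 2997 then rose and 2998 fell. With offsets for length and GC content, 0 rose and 6 fell, while 2230 of 15902 genes rose and 1677 fell. The 6 were *BIRC5*, *CCNB1*, *CENPA*, *KIF2C*, *MAD2L1* and *SPC25*. *BIRC5* hardly moved, at -2.05 (adjusted p = 3.18e-08, edgeR with the offsets), and neither did *CENPA* at -1.60 or *KIF2C* at -1.80. *MAD2L1* went to -3.85 and *CCNB1* to -1.71. *TOP2A* went from 3.14 to 0.76 and *CENPF* from 3.35 to 0.44. *CENPE* went from 2.66 to -0.12 (adjusted p = 0.7, edgeR with the offsets), which is no clear fall. The sign of 9 genes changed, 8 of them from positive to negative. Some of these were then close to no change, as *BUB1* at -0.03 (adjusted p = 0.815) and *TTK* at -0.02 (adjusted p = 0.96). Others were lower, as *BUB3* at -1.57 (adjusted p = 1.88e-07) and *TPX2* at -0.71 (adjusted p = 2.94e-05), all by edgeR with the offsets. The spread of the 40 log2 fold changes, as their SD, was 1.70 without offsets, 1.32 with the length offset and 0.99 with both offsets. What lies behind the relation with length and GC content was not tested.

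**Figure D3:**
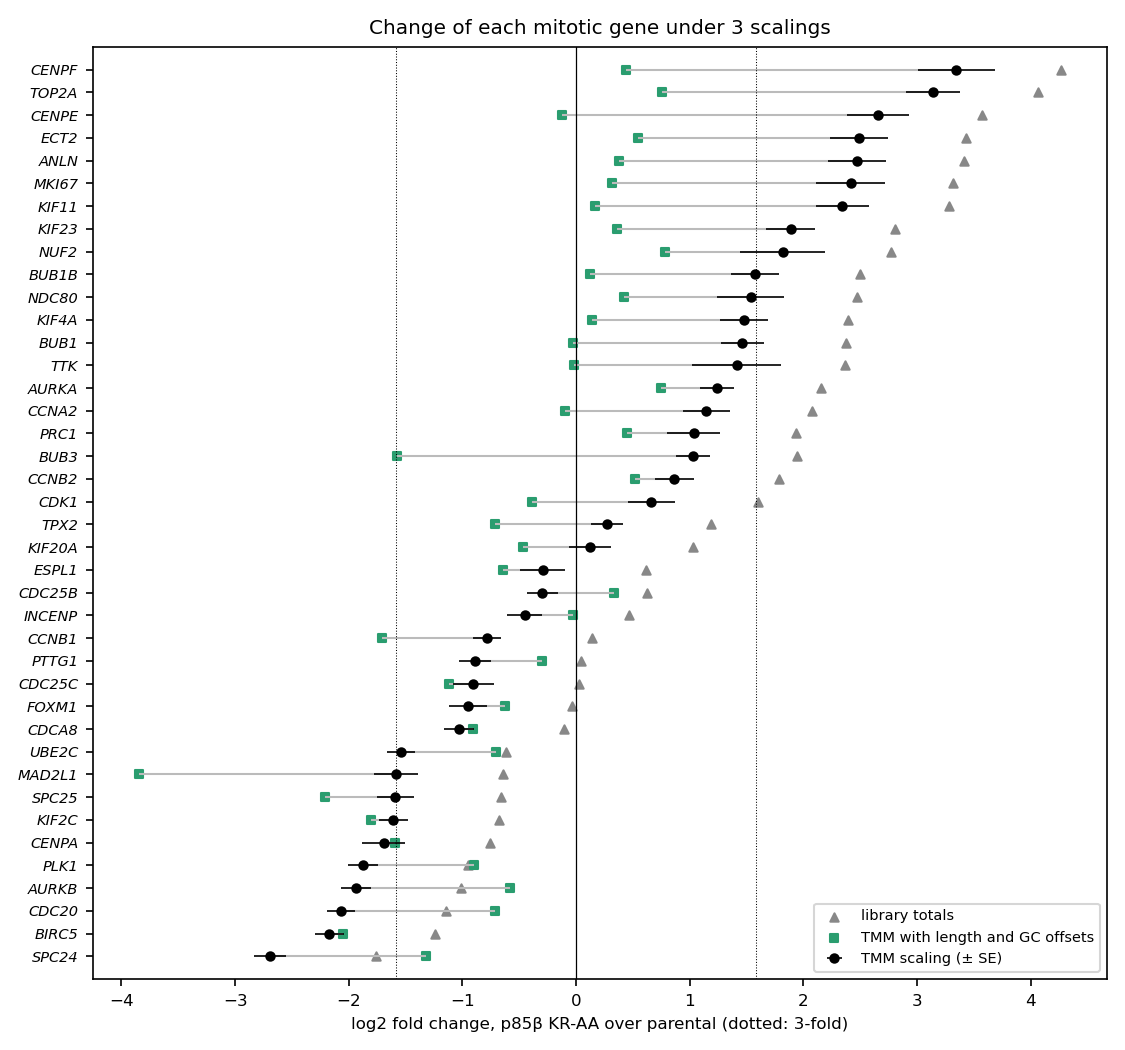
Log2 fold change of each of the 40 mitotic genes with TMM scaling (black, ± SE), library totals (grey triangles) and TMM with length and GC offsets (green squares), with dotted lines at 3-fold. With offsets no gene lies to the right of the upper line, and the rises of *CENPF* and *TOP2A* shrink to 0.44 and 0.76, while *BIRC5* stays at -2.05 and *MAD2L1* reaches -3.85.

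Levels of the mitotic genes were less uneven in p85β KR-AA cells. Per kilobase, *CENPE* was the lowest of the 40 genes in every library, and *CDC20* or *UBE2C* the highest. The highest exceeded the lowest 3431, 3709 and 2663 times in parental libraries and 159, 143 and 195 times in p85β KR-AA libraries. The SD of log2 levels per kilobase over the 40 genes was 2.69 to 2.73 in parental and 1.28 to 1.51 in p85β KR-AA libraries. Over the 16075 genes with a count in every library it was 3.40 to 3.49 and 2.78 to 2.83, so it was also lower there. The order of levels was partly kept, with a Pearson's r of 0.84 and a Spearman's rho of 0.77 between the groups' mean levels per kilobase (on a log2 scale for r) across the 40 genes.

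Replicates within a group also differed along these properties. In 22 of 40 genes p85β KR-AA replicate 3 was below the mean of the other mutant libraries, as in *ANLN*, *ECT2* and *TOP2A*. Its deviation from that mean had a Pearson's r of 0.79 with GC content across the 40 genes, against -0.69 and -0.82 for p85β KR-AA replicates 1 and 2. Deviations within a group cancel out by construction, so the opposite signs are no separate finding. Without p85β KR-AA replicate 3, 12 mitotic genes rose and 7 fell, where 4783 and 2969 of 16458 genes did. The deviation of parental replicate 2, which was low in *MKI67* and *CENPF*, had an r of -0.46 with log2 length. Without this library 12 mitotic genes rose and 5 fell, where 4594 and 2880 of 16634 genes did. *CENPA*, *KIF2C* and *SPC25* were then no longer past the threshold. These 3 genes lay close to it, with log2 fold changes of -1.55, -1.57 and -1.54 then. *CENPA* and *SPC25* also fell short without p85β KR-AA replicate 3, *KIF2C* without p85β KR-AA replicate 2, and *SPC25* without parental replicate 3.

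The wider mitotic machinery was described with 117 further genes in 7 lists, all of which were tested. In all, 32 rose and 20 fell, near the 28.6% and 17.6% of all genes tested, with a median log2 fold change of 0.69. With library totals 60 rose and 7 fell, where 7052 and 973 of all 16059 genes did. With length and GC offsets 2 rose and 17 fell, where 2230 and 1677 of 15902 genes did. Cohesin and its regulators, which hold sister chromatids together, had 8 of 13 genes that rose and 0 that fell. These are mostly long and GC-poor genes (medians of 4845 bases and 39.4% GC), a kind of which 63.4% rose among all genes. *NIPBL*, the cohesin loader, had 1.73, 1.02 and 1.23 CPM in parental and 20.3, 17.1 and 11.9 CPM in p85β KR-AA libraries (log2 fold change 3.62). APC/C genes, which drive mitotic exit, had 2 of 16 that rose and 5 that fell. *ANAPC1*, the large scaffold subunit, rose (log2 fold change 2.87), and *UBE2S*, the enzyme that extends its ubiquitin chains, fell from 1322 to 2430 CPM to 113 to 123 CPM (log2 fold change -3.87). Their lengths were 7762 and 2559 bases. The median of the cohesin genes was 1.75, and 0.34 with length and GC offsets, and that of the APC/C genes was -0.83, which turned to 0.09 with library totals.

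The remaining lists also held genes that rose and genes that fell, where 28.6% rose and 17.6% fell among all genes tested. Of 8 condensin genes, which compact chromosomes, 3 rose, with *SMC2* at a log2 fold change of 2.94, and 1 fell, *NCAPH2* at -3.19. Of 29 further kinetochore genes 5 rose, with *KNTC1* at 2.94, and 4 fell, with *CENPM* at -3.31. Of 21 further spindle and cytokinesis genes 10 rose, with *KIF14* at 4.22, and 4 fell, with *KIF22* at -2.44. Their medians were 3417 bases and 41.5% GC, and 63.4% of all long and GC-poor genes rose. The median log2 fold change of the 21 genes was 1.56, and 0.11 with length and GC offsets. Of 18 kinases, phosphatases and inhibitors 1 rose, *WEE1* at 1.69, and 5 fell, with *MAD1L1* at -2.89. Of 12 genes of the MuvB, DREAM and B-MYB complexes, which repress or activate mitotic promoters, 3 rose, with *RBL2* at 2.93, and 1 fell, *MYBL2*, the gene of B-MYB itself, at -2.84. *MYBL2* had 502 to 602 CPM in parental and 71.8 to 86.3 CPM in p85β KR-AA libraries. With library totals *MYBL2* stayed lower at -1.91, whereas *FOXM1* was at -0.04 (adjusted p = 0.86, edgeR). *RBL2*, a pocket protein of the repressor complex, was above every parental library.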

How the data were processed

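RNA-seq of 3 DLD1 parental and 3 p85β KR-AA libraries was analysed, with groups and replicate numbers taken from the sample labels. For each Ensembl gene, the authors deposited a length and an estimated count per library that was not normalized. The submitters' processing notes name HISAT2 2.1.0, RSEM 1.3.1, DESeq2 1.24.0 and hg18, without their roles. The paper's methods give read trimming, FPKM values and the thresholds used here. The TruSeq kit does not mark strand, so overlapping genes on opposite strands cannot be told apart.

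Estimated counts were rounded, since the design had assumed whole counts. Genes were filtered with filterByExpr (minimum count 10, minimum total 15), scaled with TMM and tested with edgeR 4.0.16 in R 4.3.3 (quasi-likelihood F test, no covariate, Benjamini-Hochberg over all 16059 genes tested). Calls needed a fold change of 3 and an adjusted p under 0.01. Standard errors were derived from the fold change and the F statistic. CPM were computed on TMM-scaled library sizes. Intervals from counting alone were not used, as replicate spread was larger (chi-square per degree of freedom 4.29 to 39.1 between replicates), so no libraries were copies. An exact permutation test of 3 against 3 cannot go below p = 0.1 and is not given.

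Symbols, positions and GC content came from the GENCODE annotation lifted to GRCh37, joined by Ensembl identifier, and GC content was known for 99.0% of the genes tested. The sources do not settle which build the counts rest on, so positions are those of the annotation. Offsets were robust splines with 5 degrees of freedom per library (MASS). Promoters came from RefSeq on GRCh38.p14, with the first listed window of each gene (any window as an alternative chosen after seeing the data), and matches were counted on both strands with no mismatch. The code was tested on simulated data. Figures were drawn with matplotlib 3.10.9 in Python 3.11.15.

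All 40 mitotic genes and *PIK3R2* were to be named, with, from each list of further mitotic genes, the genes that rose and fell most. The members and the lists were chosen with earlier results of these data known. Alternatives were DESeq2 1.42.0, library totals, other filters and thresholds, the replicate number as a block, leaving out each library, and the offsets. ChIP-seq was not analysed here.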

Additional observations from a re-analysis of the deposited data

How the results depend on the processing

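Of the 40 genes, 9 rose and 8 fell as reported above. With DESeq2, 9 rose and 10 fell, where 4202 and 3094 of 16059 genes did. *MAD2L1* at -1.70 and *UBE2C* at -1.66, both short of the threshold in edgeR, were among those that fell with DESeq2. Library totals gave 20 and 1 with a median log2 fold change of 1.39. The length offset left 3 that rose and a median of -0.14, and length and GC offsets left 0 and -0.21. *CENPE* was then at -0.12 (adjusted p = 0.7, edgeR with the offsets). Adjusted p alone gave 20 and 15, where 41.6% and 32.7% of all genes were higher and lower. A fold of 2 with an adjusted p under 0.05 gave 18 that rose, and the share of all genes is not given for it. At least 10 counts in every library left 5 that fell, where 2100 of 12693 genes did. A test of the fold change against 3 left 4 that fell, where 1779 of 16059 genes did. Leaving out each library gave 9 to 12 that rose and 5 to 9 that fell, with 5 without parental replicate 2, and medians of 0.39 to 0.55. Over all genes tested, 4404 to 4783 then rose and 2774 to 2992 fell. Offsets remove any relation with length and GC content by construction, and for the other shifts the cause was not tested.

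With the replicate block, 9 rose and 8 fell, with a median of 0.46, *MAD2L1* falling and *SPC25* short of the threshold. Same-numbered libraries deviated with correlations of -0.14, 0.12 and -0.04, and differently numbered ones with -0.18 to 0.23. These values do not show a pairing by number, but cannot tell whether libraries were collected in pairs, which the labels do not say. The fit with the replicate block, and the one without a filter, had infinite prior degrees of freedom and very small p-values, which are not given. Over all genes, library totals gave 7052 that rose and 973 that fell instead of 4597 and 2825. Parental levels of *CENPE* under 1 CPM limit its precision.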

Other observations

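The combination of CCAAT with TTTGAA or TTCGAA stood in 19 of the 33 mitotic promoter windows (57.6%) and in 6.58% of 27305 windows of all genes, taking the first listed window of each gene. With any window it was 21 of 33 (63.6%) and 7.85%. TTTAAA stood in 11 of 33 (33.3%) and in 12.3% of all. Hits of different motifs overlapped in 2 windows. The ratio of *UBE2C* to *CDC20* per kilobase was 0.965, 1.04 and 0.888 in parental and 1.39, 1.42 and 1.36 in p85β KR-AA libraries, while those of *PTTG1* to *ESPL1* and of *MKI67* to *TOP2A* overlapped between the groups.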
